A study of Mus musculus with 3 samples.

Results

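Leukocytes travel in the blood between marrow, lymphoid organs and inflamed tissue, and 10 genes for receptors that steer this traffic were examined: Ccr2, Cx3cr1, Cxcr2, Cxcr4, Ccr7, Ccr9 and Cxcr3, which encode chemokine receptors, and S1pr1, S1pr4 and S1pr5, which encode receptors for sphingosine 1-phosphate (S1P). They were chosen by name, and each of the 10 matched 1 of the 32285 genes in the tables. Their transcripts were counted in single cells of peripheral blood from wild-type Balb/C mice. 1 library came from naive blood. The other 2 came from mice transplanted with BBC2 cells, a pro-B-like, GFP-expressing line of the stem cell leukemia and lymphoma syndrome (SCLL) caused by activated FGFR1, and were taken at day 11 (D11, intermediate disease) and day 14 (D14, late disease).

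Recipients were young adult females according to the study's methods, and the number of mice behind each library is not given in the sources used here. Red cells were lysed and dead cells removed before the 3 libraries were made. Conditions had 1 library each and could not be tested against each other, so each value belongs to its library, and "rose" and "fell" are used for differences of 2-fold or more. Every interval in parentheses is an exact 95% interval that covers counting error only. The tables held 5386 naive, 8536 D11 and 9337 D14 barcodes with 30362408, 57640396 and 65861863 unique molecular identifiers (UMIs, 1 per captured transcript), and after removal of barcodes under 200 genes or over 10% mitochondrial UMIs, 3811, 4567 and 4414 cells remained. Between 12 and 18 barcode sequences were shared by any pair of libraries, of which 3 to 5 were kept in both.

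Cells were assigned to classes by marker genes, none of which is one of the 10 receptors, and the class names carry the ending "-like" for that reason: classical and non-classical monocyte-like (cMono-like and ncMono-like), neutrophil-like, T-like, natural killer-like (NK-like), B-like, proB-like and erythroid-like. A cell needed UMIs of at least 3 of 6 markers of its class and a lead of at least 2 markers over any other class. In classes with at least 50 cells in a library each gate marker was highest in its own class, which the gating itself favors. So were the markers held back for checking, except 1 of T-like and 1 of proB-like cells at D11. The share of cells that met no gate was 9.79% in naive blood, 12.2% at D11 and 20.6% at D14. Receptor levels are the UMIs of a gene in all cells of a class, scaled to a class total of 1000000 (CPM). Of these classes, naive proB-like (3) and erythroid-like (48) and D14 B-like cells (39) were under 50 cells and were not compared, and gates for platelets, dendritic cells, basophils and progenitors held at most 16 cells in a library. Smaller groups within a class are given with their cell numbers.

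Both receptor families are membrane proteins coupled to inhibitory G proteins, and cells move towards higher concentrations of their ligand. Chemokine receptors hold cells in the marrow or draw them into lymph nodes and inflamed tissue, whereas S1P, which is plentiful in blood and scarce inside tissue, draws cells into the circulation. CCR2 takes classical monocytes out of the marrow, CXCR2 and CXCR4 have opposing roles in neutrophil release and return, and CCR7 and S1PR1 set the entry and exit of naive lymphocytes at lymph nodes.

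Of the 10 genes, 4 lie on chromosome 9 of GRCm38: Ccr2 (chr9:124101950-124113557), Cx3cr1 (chr9:119901616-120069879), Ccr9 (chr9:123678439-123784330) and S1pr5 (chr9:21242912-21248443). RefSeq promoters were matched for 8 of the 10, Ccr7 and S1pr1 being without a match. The 250 bases before a RefSeq start site are printed for 4 genes. Ccr2 and Cx3cr1 led in opposite monocyte classes, S1pr5 shared its leading class with Cx3cr1, and Cxcr2 was the neutrophil receptor. The printed bases are RefSeq sequences on GRCm38.p6, read 5′ to 3′ along the gene. Capitals mark matches on either strand to CCACCC (KLF factors), GAGGAA (core of PU.1 sites) or CCCGCCC (GC box). TTGCNNAA (C/EBP) and TCACACC (T-box factors) were searched as well.
Ccr2, chr9:124101933-124102182, + strand: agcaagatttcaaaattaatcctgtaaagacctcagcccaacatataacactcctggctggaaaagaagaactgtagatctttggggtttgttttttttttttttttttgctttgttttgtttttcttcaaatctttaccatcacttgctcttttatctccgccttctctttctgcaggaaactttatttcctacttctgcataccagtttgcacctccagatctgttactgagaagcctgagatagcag
Cx3cr1, chr9:120068297-120068546, - strand: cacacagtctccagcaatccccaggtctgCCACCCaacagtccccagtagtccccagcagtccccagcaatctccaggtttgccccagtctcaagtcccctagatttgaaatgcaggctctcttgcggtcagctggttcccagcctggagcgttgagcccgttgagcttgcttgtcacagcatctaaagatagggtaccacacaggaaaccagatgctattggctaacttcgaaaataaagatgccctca
S1pr5, chr9:21248444-21248693, - strand: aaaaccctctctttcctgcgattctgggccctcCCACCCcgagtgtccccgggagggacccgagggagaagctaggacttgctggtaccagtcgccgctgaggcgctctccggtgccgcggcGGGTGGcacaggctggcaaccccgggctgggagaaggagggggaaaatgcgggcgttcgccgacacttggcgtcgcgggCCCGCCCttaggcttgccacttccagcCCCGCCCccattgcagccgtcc
Cxcr2, chr1:74153744-74153993, + strand: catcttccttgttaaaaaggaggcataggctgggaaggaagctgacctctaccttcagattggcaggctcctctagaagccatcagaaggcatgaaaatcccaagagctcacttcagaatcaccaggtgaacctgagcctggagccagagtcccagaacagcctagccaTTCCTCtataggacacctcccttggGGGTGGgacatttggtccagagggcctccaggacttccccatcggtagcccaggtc

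The Ccr2 window lies almost wholly, and the Cx3cr1 window wholly, inside the gene bounds given above. None of the 5 strings occurred in the Ccr2 window, which had 37.2% G and C. The S1pr5 window, with 69.2% G and C, held CCACCC 2 times and CCCGCCC 2 times. Cx3cr1 had CCACCC 1 time, and Cxcr2 had CCACCC and GAGGAA 1 time each. Among 32851 promoters of the same length CCACCC occurred in 28.1%, CCCGCCC in 23.4%, GAGGAA in 23.3%, TTGCNNAA in 9.56% and TCACACC in 3.33%. The matches are a description of the letters and say nothing of binding.

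Each receptor had its own set of classes. Cxcr2 was nearly all in neutrophil-like cells, which held 90.5% of its naive, 89.6% of its D11 and 92.6% of its D14 UMIs. Ccr7 and S1pr1 were lymphocyte transcripts, with 82.7% and 82.7% of their naive UMIs in T-like and 12% and 10.8% in B-like cells. S1pr5 was divided between NK-like (45.1%) and ncMono-like cells (37.5%) of naive blood. Cxcr4 was spread most widely, at over 45 CPM in all compared classes but erythroid-like cells.

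**Figure D1:**
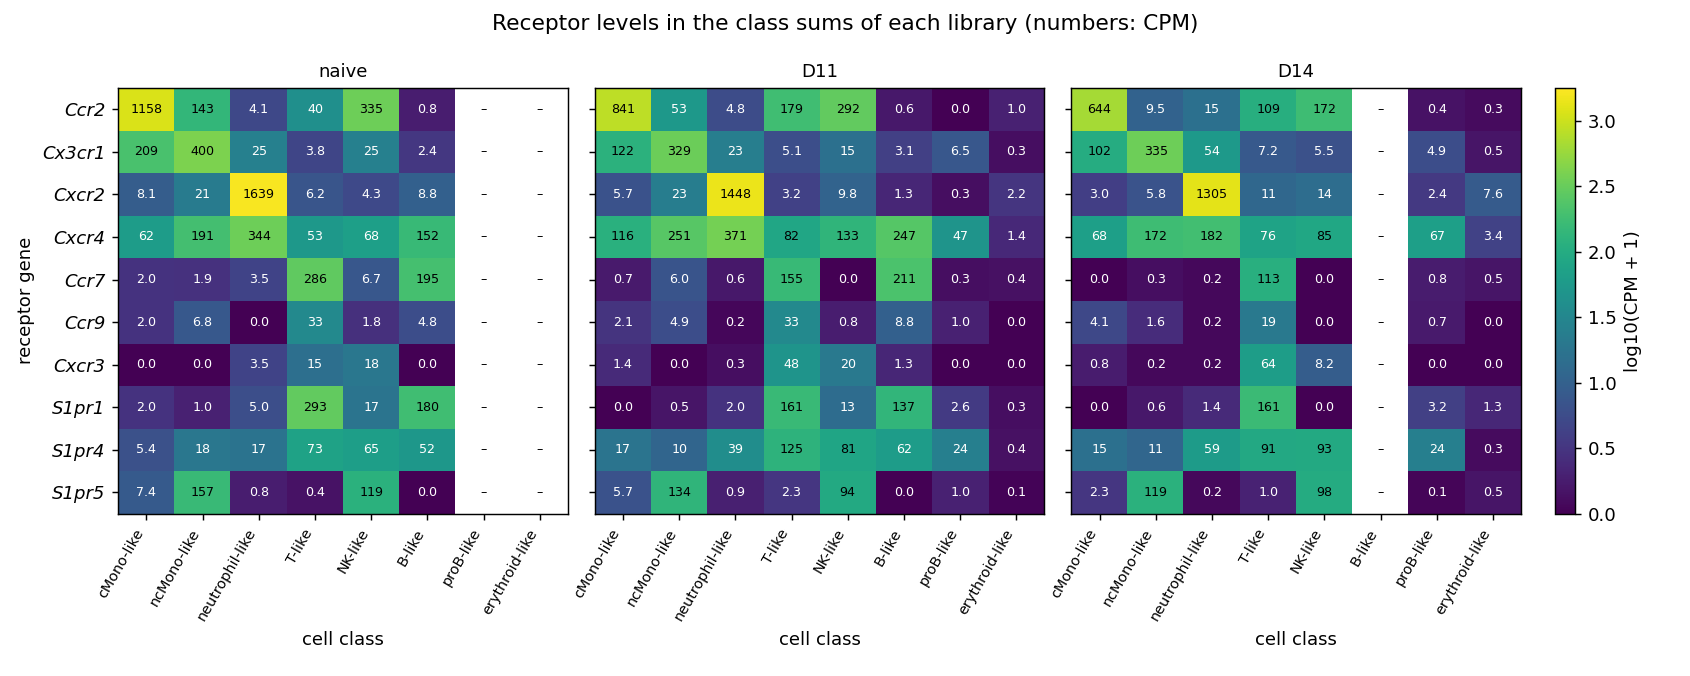
Receptor genes (rows) by cell class (columns) in naive, D11 and D14 blood; each tile gives the CPM of the class and its color log10(CPM + 1), and a dash marks a class with fewer than 50 cells. Cxcr2 is brightest in neutrophil-like cells (1639, 1448 and 1305 CPM) and Ccr2 in cMono-like cells (1158, 841 and 644 CPM), and in erythroid-like cells all 10 genes are below 10 CPM.

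The classes changed in number, and with them the cells that carried each receptor in blood. The T-like share of kept cells went from 32.8% to 6.11% at D11 and 2.56% at D14, while ncMono-like cells numbered 123, 206 and 620. Over all kept cells Ccr7 was at 154, 19.9 and 3.69 CPM and S1pr1 at 157, 17.9 and 6.49 CPM, the D14 values being the lowest for both. These values are shares of all UMIs and depend on the depth of the other classes as well. At D14 the 656 proB-like cells had a median of 30881.5 UMIs, against 7618 in T-like cells. S1pr5 had 86.1% of its D14 UMIs in ncMono-like and 4.11% in NK-like cells. Cxcr4 was shared differently too: 49.5% of its naive UMIs but 24.9% of its D14 UMIs lay in neutrophil-like cells, with 30.6% in proB-like and 23.9% in ncMono-like cells at D14.

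**Figure D2:**
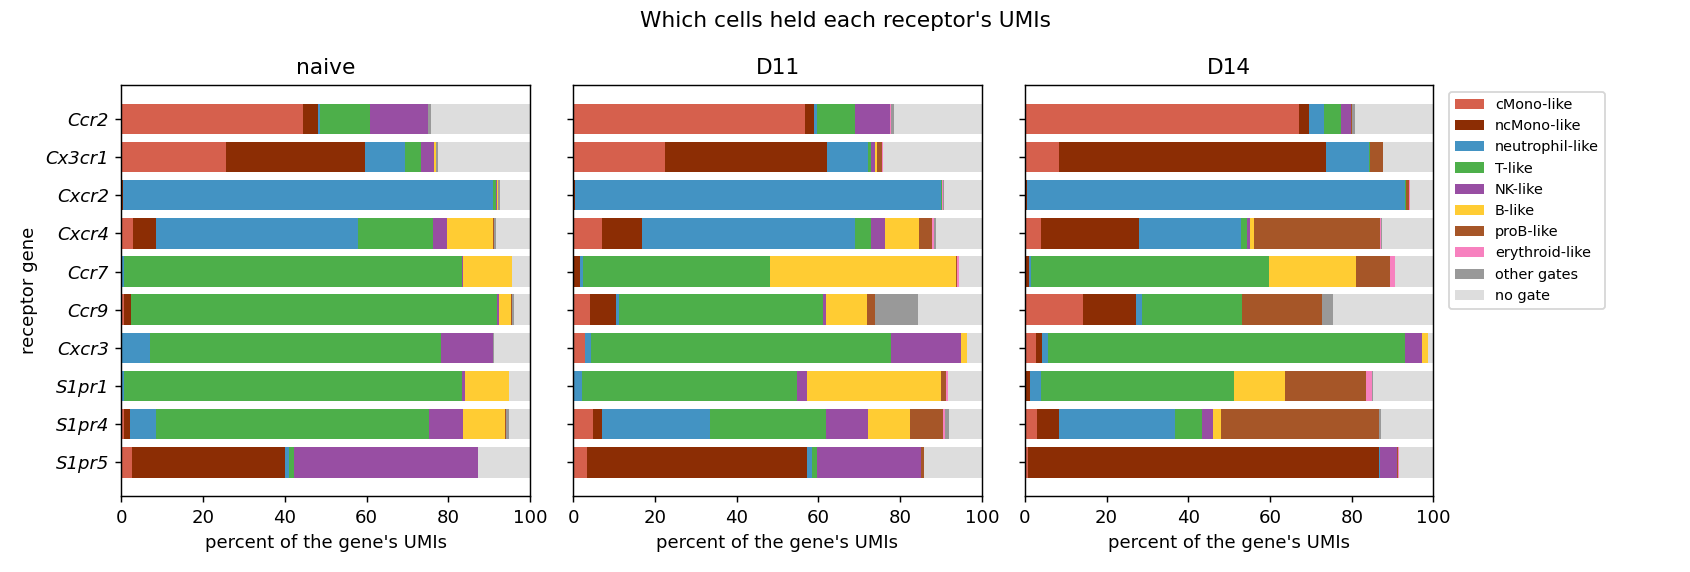
Share of each receptor's UMIs over all kept cells (x axis, percent) that lay in each cell class (colors), by gene (y axis) and library (panels). From naive to D14 blood the T-like share of S1pr4 goes from 66.9% to 6.81% and the ncMono-like share of S1pr5 from 37.5% to 86.1%.

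Ccr2, the receptor for Ccl2 and related ligands, led in cMono-like cells, at 1158 CPM (1104 to 1214), 841 CPM (808 to 876) and 644 CPM (614 to 675) in naive, D11 and D14 blood. The 3 intervals do not overlap, and the log2 ratio of D14 over naive was -0.85 (-0.94 to -0.75). In ncMono-like cells the levels were 143 CPM (121 to 168), 52.9 CPM (42.9 to 64.6) and 9.47 CPM (7.22 to 12.2). The class with the lower level thus ended at a still lower one, the D14 over naive log2 ratio being -3.91 (-4.37 to -3.47). The gap between the monocyte classes was 8.12-fold (6.86 to 9.67), 15.9-fold (13 to 19.7) and 68.0-fold (52.6 to 89.5). The cMono-like class itself differed between libraries. Summed markers of the progenitor gate were at 22.1, 71.1 and 267 CPM in it and Chil3 at 130, 263 and 1405 CPM. Its median depth was 12934, 13669 and 20750.5 UMIs. The part of these differences in the receptor values of the class, Ccr2 included, was not tested.

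Fewer ncMono-like cells held the transcript. At least 1 Ccr2 UMI was present in 55 of 123 cells in naive blood, in 37 of 206 at D11 and in 25 of 620 at D14. With every cell thinned to 1000 UMIs the shares were 13%, 4.85% and 0.968%, against 63.5%, 62.7% and 41.7% of cMono-like cells. Ccr2 in B-like cells, a class that should lack it, gave 0.260% in naive blood. Median depth was 8021, 7920.5 and 9325.5 UMIs in ncMono-like and 6148 in naive B-like cells. Summed markers of the cMono gate in the ncMono-like class were at 147, 196 and 124 CPM. Among ncMono-like cells with at most 1 marker of any other class, a selection chosen after seeing the data, Ccr2 was at 124 CPM in 84 naive, 47.6 CPM in 144 D11 and 4.47 CPM in 329 D14 cells.

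Cx3cr1, the receptor for fractalkine, had the reverse order of monocyte classes. It stood at 399.8 CPM (362 to 440.3), 329 CPM (303 to 356) and 335 CPM (321 to 350.0) in naive, D11 and D14 ncMono-like cells. In cMono-like cells it was at 209 CPM (187 to 234), 122 CPM (109 to 135) and 102 CPM (90.6 to 115). The non-classical level moved less, and its log2 ratio at D14 was -0.25 (-0.41 to -0.10), against -1.03 (-1.27 to -0.79) for the classical level. The ncMono-like level was 1.91-fold (1.64 to 2.22) that of cMono-like cells in naive blood and 3.28-fold (2.89 to 3.73) at D14.

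At 1000 UMIs per cell, the share of monocyte-like cells with both receptors detected was lower at D14 than in naive blood. Cells with both were 13 of 115 naive, 12 of 209 D11 and 2 of 120 D14 cMono-like cells. In ncMono-like cells they were 5 of 123, 4 of 206 and 1 of 620. The cMono-like shares of 11.3%, 5.74% and 1.67% stood beside 12.7%, 7.20% and 3.47% as products of the single shares. In ncMono-like cells the shares were 4.07%, 1.94% and 0.161% beside products of 3.17%, 1.32% and 0.279%. In both classes the products lay inside the intervals of the observed shares. Without thinning, 100%, 99.5% and 97.5% of cMono-like cells had a Ccr2 UMI and 79.1%, 64.6% and 62.5% a Cx3cr1 UMI. Most cMono-like cells thus held UMIs of both in every library.

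Cxcr4, which binds Cxcl12, favored the non-classical class in every library, with 191, 251 and 172 CPM in ncMono-like against 61.7, 116 and 67.9 CPM in cMono-like cells. Both classes were highest at D11, where the log2 ratio over naive was 0.91 (0.57 to 1.26) in cMono-like and 0.39 (0.15 to 0.64) in ncMono-like cells, and at D14 the ratios of 0.14 (-0.23 to 0.52) and -0.15 (-0.37 to 0.073) were within counting error of 0.

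Of the 3 receptors that reached 20 CPM in naive or D14 cMono-like cells, 1 fell (Cx3cr1) and 0 rose at D14, where 4.56% of the 6643 genes tested in the same way fell and 5.83% rose. In ncMono-like cells 2 of 5 fell (Ccr2 and Cxcr2) and 0 rose, against 3.82% and 3.64% of 6543 genes. The log2 ratio of Cx3cr1 in cMono-like cells lay just past the limit and was -0.89 when cells needed a lead of 1 marker over any other class. The median log2 ratio of the receptors was -0.85 in cMono-like and -0.40 in ncMono-like cells, beside 0.045 and -0.0089 over all tested genes. Cxcr2 in ncMono-like cells was at 21.3, 22.9 and 5.84 CPM and rested on 22 UMIs in 5 naive cells, 1 of which held 13. It passed the 20 CPM limit only through naive blood and could not have risen. Its log2 ratio of -1.87 (-2.67 to -1.04) became 0.85 when the cells with the highest doublet scores were left out, 3 of them naive ncMono-like cells.

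**Figure D3:**
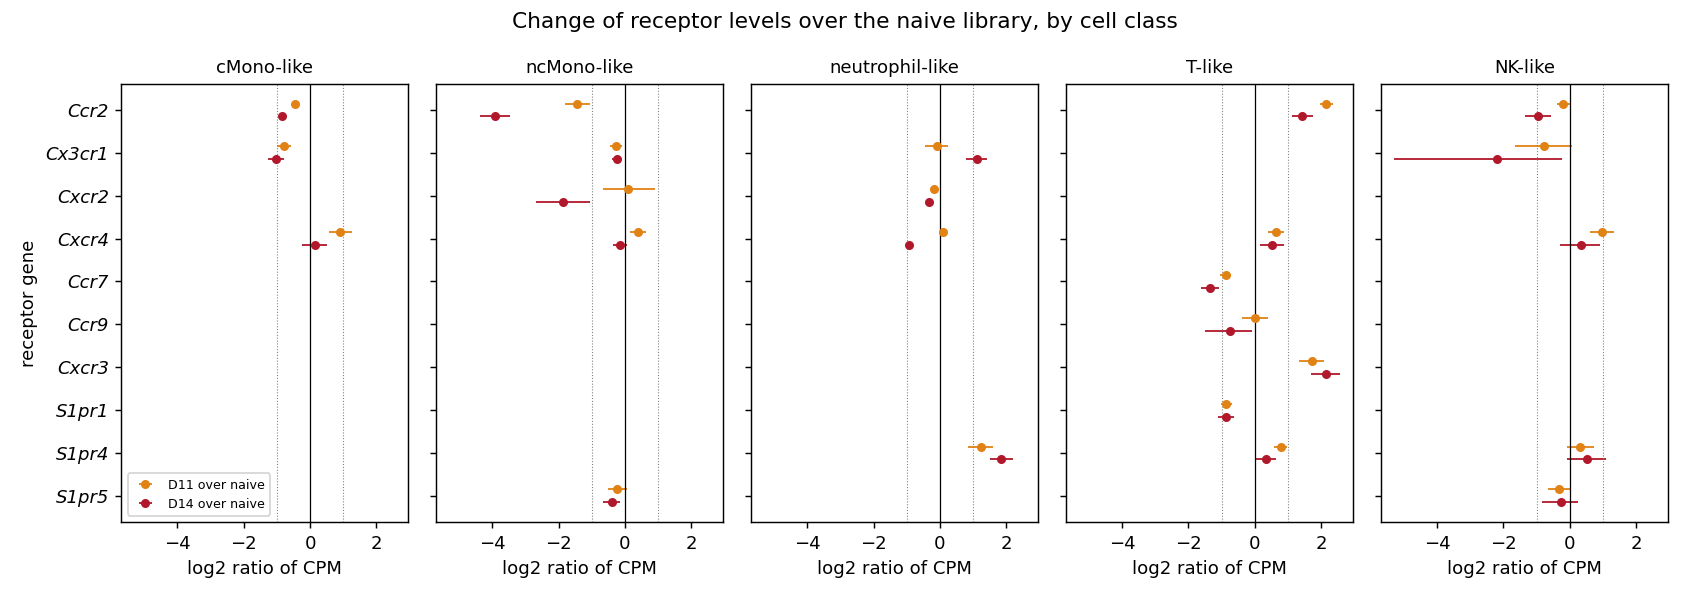
Log2 ratio of the receptor level to naive blood (x axis) at D11 and D14 (colors) in 5 cell classes (panels), by receptor gene (y axis). Points are drawn where a library reached 20 CPM, bars are exact 95% intervals for counting error, and dotted lines mark 2-fold. Ccr2 at D14 lies at -3.91 in ncMono-like and at 1.43 in T-like cells.

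Cxcr2, through which neutrophils follow Cxcl1 and Cxcl2, was at 1639 CPM (1603 to 1676), 1448 CPM (1419 to 1477) and 1305 CPM (1277 to 1334) in naive, D11 and D14 neutrophil-like cells. The class changed in composition over the same time. Neutrophil-like cells in which Ltf, Camp, Ngp and Lcn2, genes of the secondary granules made before neutrophils leave the marrow, took at least 0.5% of the UMIs are called granule-high. They numbered 20 of 1293 in naive blood, 204 of 1594 at D11 and 490 of 1278 at D14, and 46, 228 and 461 cells lay near the limit, between 0.25% and 1%.

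In the remaining, granule-low cells, a group chosen after seeing the data, Cxcr2 was at 1674 CPM (1637 to 1711), 1614 CPM (1579 to 1649) and 1624 CPM (1578 to 1672). These levels were nearly the same, with a log2 ratio of -0.043 (-0.10 to 0.0093) for D14 over naive against -0.33 (-0.37 to -0.28) in the whole class. In granule-high cells Cxcr2 was at 583 CPM (468 to 717), 868 CPM (821 to 918) and 1031 CPM (997 to 1066). Granule-high cells had less Cxcr2 than granule-low cells of their library, 0.348-fold (0.279 to 0.429) in naive blood, where they were 20 cells, 0.538-fold (0.507 to 0.571) at D11 and 0.635-fold (0.607 to 0.663) at D14. Median UMIs per cell were 6321, 6237.5 and 6269 in granule-high and 3487, 3208.5 and 3164.5 in granule-low cells.

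Cxcr4, which retains neutrophils in the marrow and brings aged ones back, was at 344 CPM (328 to 361), 371 CPM (356 to 386) and 182 CPM (171 to 193) in naive, D11 and D14 neutrophil-like cells. The lower level appeared between D11 and D14, with a log2 ratio of -1.03 (-1.13 to -0.92) for D14 over D11. Unlike that of Cxcr2 it was also present within granule-low cells, which had 351, 408 and 209.6 CPM and a D14 over naive log2 ratio of -0.75 (-0.88 to -0.61). Granule-high cells had 131, 239 and 158 CPM. Cells with both Cxcr2 and Cxcr4 UMIs, at 1000 UMIs per cell, were 23.2%, 22.8% and 14.7% of neutrophil-like cells, and cells with Cxcr2 alone were 54.5%, 52.0% and 60.1%. For both receptors together the products of the single shares were 22.8%, 22.8% and 13.9%, inside the intervals of the observed shares.

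S1pr4, an S1P receptor of blood cells, and Cx3cr1 were low in naive neutrophil-like cells and higher at D14, S1pr4 already at D11. S1pr4 was at 16.5 CPM (13.1 to 20.6), 38.6 CPM (34.0 to 43.7) and 59.3 CPM (53.4 to 65.7). It was highest in granule-high cells, which exceeded granule-low cells 3.97-fold (3.08 to 5.13) at D11 and 2.57-fold (2.03 to 3.29) at D14. Within granule-low cells it was at 15.8, 23.3 and 32.2 CPM, a D14 over naive log2 ratio of 1.03 (0.57 to 1.49) in place of 1.84 (1.49 to 2.21) for the whole class.

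Cx3cr1 was at 25.2 CPM (20.9 to 30.1), 23.5 CPM (19.9 to 27.5) and 54.0 CPM (48.4 to 60.1) in the whole class, the naive and D11 levels being within counting error. It was distributed the other way, at 13.1, 4.14 and 15.8 CPM in granule-high cells. In granule-low cells it stood at 25.6 CPM (21.2 to 30.6), 29.0 CPM (24.5 to 34.1) and 98.6 CPM (87.5 to 111), a D14 over naive log2 ratio of 1.95 (1.63 to 2.27) in place of 1.10 (0.80 to 1.41). Cells with a Cx3cr1 UMI were 83 of 1273 naive, 112 of 1390 D11 and 164 of 788 D14 granule-low cells, and 2.46%, 2.95% and 10.1% after thinning, where T-like cells had between 0.161% and 1.77%. The 39 D14 cells with the most UMIs held 48.4% of them.

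Since Cx3cr1 is also a leading transcript of ncMono-like cells, the 6 markers of that gate were read in the D14 granule-low cells: Ace, Pparg, Cd300e, Eno3 and Adgre4 were at between 0.370% and 1.31% of their ncMono-like level, Treml4 was at 18.3% and Cx3cr1 at 29.4%. In naive granule-low cells Treml4 was at 41.2% and Cx3cr1 at 6.40%. Summed over the gate, markers of cMono-like cells in the neutrophil-like class were at 76.4, 239 and 693 CPM and those of ncMono-like cells at 191, 93.1 and 83.8 CPM, with 0 of 6 absent. Of the cMono markers at D14, Chil3 was at 470 CPM and Ly6c2 at 195 CPM in neutrophil-like cells. F13a1 was at 7.19 CPM there, against 1542 CPM in cMono-like cells. The part of the cMono markers in the values of S1pr4 and Cx3cr1 was not tested.

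Of the 4 receptors tested in neutrophil-like cells 2 rose at D14 (Cx3cr1 and S1pr4) and 0 fell, where 7.76% of 4977 genes rose and 11% fell. S1pr4, at 16.5 CPM in naive blood, passed the 20 CPM limit only through D14. It could not have fallen, which favors a higher median of the receptors. The log2 ratio of Cx3cr1 was 0.77 with a lead of 1 marker in the gate and 0.92 with 4 markers, under the 2-fold limit. The median log2 ratio was 0.39 over the 4 receptors and -0.26 over all tested genes. With TMM scaling, which added 0.22 to every D14 ratio of the class, Cxcr2 came to -0.11 and Cxcr4 to -0.70.

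**Figure D4:**
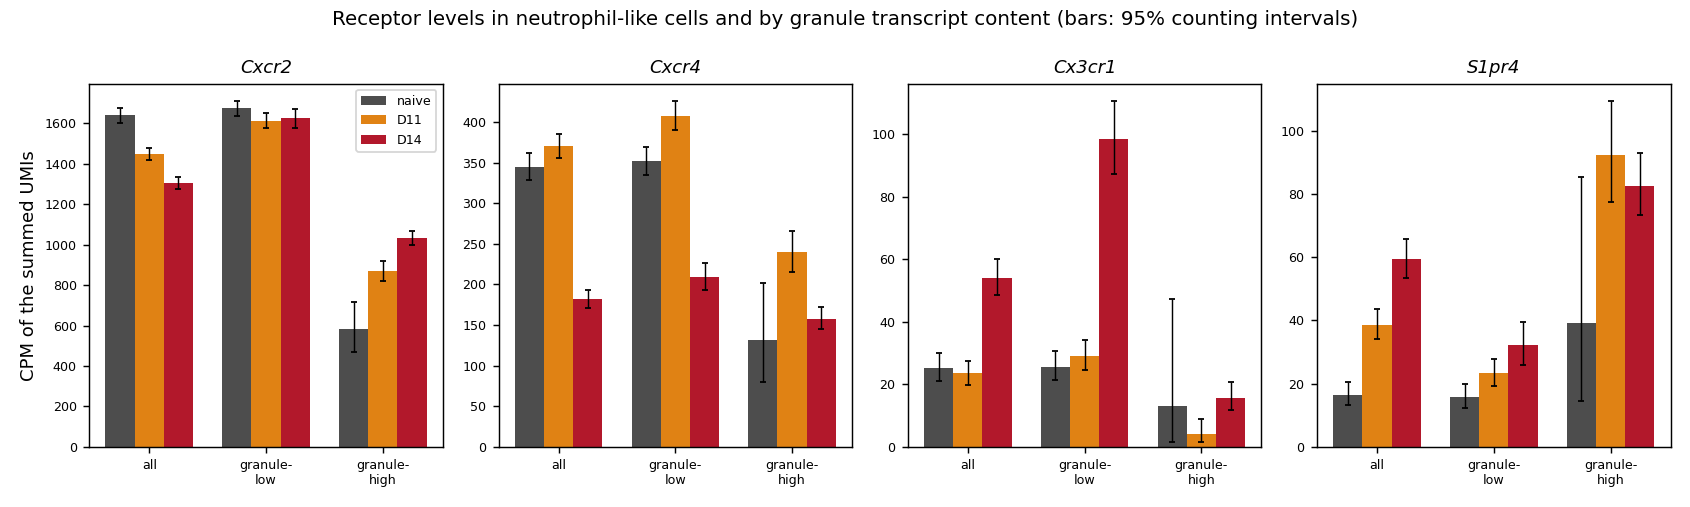
Level of Cxcr2, Cxcr4, Cx3cr1 and S1pr4 (y axis, CPM, each panel with its own scale) in all neutrophil-like cells and in granule-low and granule-high cells, by library (colors); error bars are exact 95% Poisson intervals. Granule-low Cxcr2 is at 1674, 1614 and 1624 CPM and granule-low Cx3cr1 at 25.6, 29.0 and 98.6 CPM.

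Ccr7, which guides lymphocytes into lymph nodes, was at 286 CPM (277 to 296), 155 CPM (139 to 173) and 113 CPM (92.6 to 136) in naive, D11 and D14 T-like cells. Ccr2 went the other way in the same cells, at 40.3 CPM (36.7 to 44.1), 179 CPM (161 to 197) and 109 CPM (88.9 to 131). So did Cxcr3, a receptor for interferon-induced chemokines carried by effector T cells, at 14.6 CPM (12.5 to 16.9), 47.6 CPM (38.8 to 57.7) and 63.5 CPM (48.7 to 81.4). For none of the 3 do the D14 and naive intervals overlap, and the log2 ratios at D14 were -1.35 (-1.63 to -1.07) for Ccr7, 1.43 (1.11 to 1.74) for Ccr2 and 2.12 (1.68 to 2.55) for Cxcr3.

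The make-up of the T-like class changed at the same time. Cells with a UMI of S100a4, a gene for a calcium-binding protein of antigen-experienced T cells, were 133 of 1249 naive (10.6%), 129 of 279 D11 (46.2%) and 62 of 113 D14 T-like cells (54.9%). In B-like cells the share was 1.04% in naive blood and 3.97% at D11, and median UMIs per T-like cell were 9148, 7182 and 7618. The division by S100a4 was chosen after seeing the data. Summed markers of the NK gate in T-like cells were at 74.5, 154 and 134 CPM, and their part in the Ccr2 and Cxcr3 values was not tested.

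Among cells without S100a4 UMIs Ccr7 was at 319 CPM (308 to 330.4), 307 CPM (274 to 344) and 251 CPM (202 to 308), so that the D14 over naive log2 ratio was -0.35 (-0.66 to -0.047). Among cells with S100a4 UMIs it was at 66.3, 24.8 and 31.0 CPM. The division by S100a4 thus separated high from low Ccr7, 4.81-fold (3.95 to 5.93) in naive blood, 12.4-fold (8.44 to 18.8) at D11 and 8.10-fold (4.90 to 14.1) at D14.

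Ccr2 lay mostly in the S100a4-positive cells, at 273 CPM (247 to 300.1), 322 CPM (290.4 to 356) and 173 CPM (141 to 209). The S100a4-negative cells had 5.68 CPM in naive and 11.0 CPM in D11 blood, and 0 UMIs in 51 D14 cells, which allows up to 8.27 CPM. In S100a4-positive cells Ccr2 was lower at D14 than in naive blood, with a log2 ratio of -0.66 (-0.98 to -0.35). The bound in S100a4-negative cells lies above their naive level and does not settle a direction. Cxcr3 was at 58.5, 73.7 and 91.3 CPM in S100a4-positive and 8.02, 17.0 and 16.5 CPM in S100a4-negative cells, where 6 UMIs stood behind the D14 value. Its D14 over naive log2 ratio was 0.64 (0.13 to 1.14) in the positive cells and, within counting error of 0, 1.04 (-0.44 to 2.23) in the negative ones.

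S1pr1, which lets T cells leave lymph nodes and thymus for the blood, was at 293 CPM (283 to 303), 161 CPM (144 to 179) and 161 CPM (137 to 188) in naive, D11 and D14 T-like cells. The lower level was reached by D11, and D14 did not differ from D11 by more than counting error (log2 ratio from -0.28 to 0.28). It was lower in leukemic than in naive blood in both groups, at 306, 184 and 209 CPM in S100a4-negative and 204, 141 and 132 CPM in S100a4-positive cells, log2 ratios of -0.55 (-0.89 to -0.22) and -0.63 (-1.0 to -0.27) at D14. Klf2, a transcription factor that maintains S1pr1 in T cells, was at 727, 655 and 437 CPM in the whole class and 747, 610.0 and 582 CPM in S100a4-negative cells. In S100a4-positive cells it was at 592, 694 and 352 CPM, higher at D11 where S1pr1 was lower. Cd69, whose product removes S1PR1 from the cell surface, was at 131, 156 and 140.3 CPM. Cells with both S1pr1 and Ccr7 UMIs, at 1000 UMIs per cell, were 87 of 1246 naive (6.98%), 6 of 278 D11 (2.16%) and 3 of 113 D14 T-like cells (2.65%). The products of the single shares, 6.55%, 1.97% and 2.13%, lay inside the intervals of these shares.

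**Figure D5:**
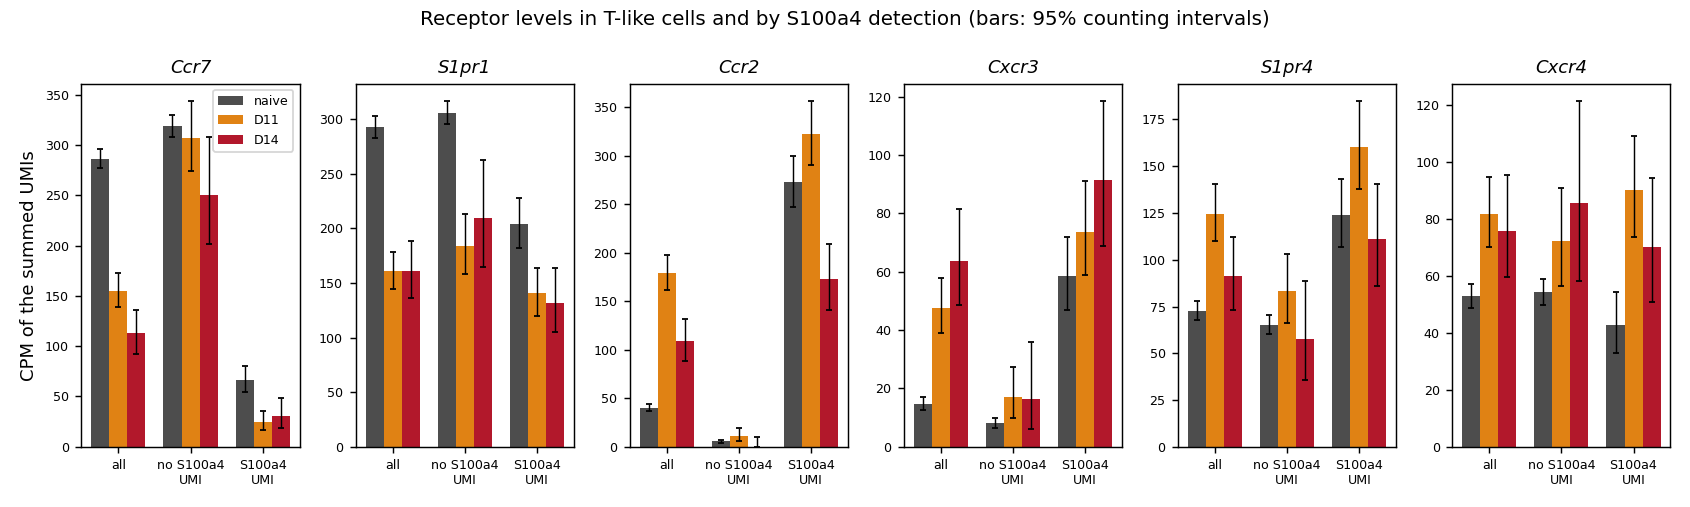
Level of 6 receptors (y axis, CPM, each panel with its own scale) in all T-like cells and in those without and with an S100a4 UMI, by library (colors); error bars are exact 95% Poisson intervals. Ccr7 is at 286, 155 and 113 CPM in the whole class and at 319, 307 and 251 CPM in S100a4-negative cells, and Ccr2 is at 273, 322 and 173 CPM in S100a4-positive cells.

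Ccr9, which directs T cells to the thymus and small intestine, was at 32.5 CPM (29.4 to 36.0), 32.8 CPM (25.6 to 41.4) and 19.5 CPM (11.7 to 30.4) in T-like cells, with overlapping naive and D11 intervals. Split by S100a4, the D14 value was below the naive one only in S100a4-positive cells. These were at 21.7, 25.7 and 3.26 CPM, a D14 over naive log2 ratio of -2.73 (-5.84 to -0.77) from 2 UMIs at D14. S100a4-negative cells were at 34.2, 41.1 and 46.9 CPM, a ratio of 0.46 (-0.34 to 1.16), within counting error of 0. The level was higher in CD8-lineage cells (with UMIs of Cd8a or Cd8b1 and none of Cd4), with 117 CPM (103 to 132) in 215 naive, 64.3 CPM (41.6 to 94.9) in 51 D11 and 54.1 CPM (30.9 to 87.9) in 35 D14 cells. CD4-lineage cells had 10.3, 15.5 and 6.14 CPM, the last from 3 UMIs. The CD8 level was 11.4-fold (8.74 to 15) that of CD4 cells in naive blood and 4.14-fold (2.15 to 8.17) at D11. At D14 it was 8.82-fold (2.52 to 47.2), a wide interval from 35 CD8 cells and 3 UMIs in CD4 cells. For Ccr7 CD4 and CD8 cells had 298 and 267 CPM in naive blood and 73.7 and 173 CPM at D14, from 51 and 35 cells.

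S1pr4 in T-like cells was at 72.7 CPM (67.9 to 77.8), 125 CPM (110.3 to 140.5) and 91.2 CPM (73.2 to 112), highest at D11. Cxcr4 was at 52.7, 81.7 and 75.8 CPM, and its naive level was the lowest in both groups, at 42.7, 90.0 and 70.1 CPM in S100a4-positive and 54.2, 72.1 and 85.4 CPM in S100a4-negative cells. Of the 7 receptors tested in T-like cells 2 rose at D14 (Ccr2 and Cxcr3) and 1 fell (Ccr7), where 6.44% of 6535 genes rose and 1.84% fell. Cxcr3, at 14.6 CPM in naive blood, passed the 20 CPM limit only through D14 and could not have fallen. Ccr9, at 19.5 CPM at D14, passed it only through naive blood and could not have risen. The median log2 ratio of the 7 was 0.33, beside 0.087 over all tested genes.

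Other chemokine receptors were read from a list of 16 genes. In T-like cells 4 of them reached 20 CPM in naive or D14 blood and all 4 rose: Cxcr6 from 11.1 to 51.2 CPM, Ccr10 from 5.2 to 32.8 CPM, Ccr6 from 5.54 to 21.5 CPM and Ccr4 from 8.26 to 20.5 CPM. These genes encode receptors of memory and tissue-homing T cells. Over all 6535 genes tested in the class 6.44% rose. The median log2 ratio of the 4 was 2.08, beside 0.087 over all tested genes. All 4 were under 20 CPM in naive blood and passed that limit only through D14. None of them could have fallen, and the limit favors a high median. Cxcr6 lay mostly in S100a4-positive cells, like Ccr2, but was not lower there at D14: it was at 49.9, 125 and 78.2 CPM in S100a4-positive and 5.28, 9.01 and 5.51 CPM in S100a4-negative cells. Ccr10 was at 29.6, 65.1 and 48.9 CPM in S100a4-positive cells and Ccr6 at 31.5, 48.0 and 34.2 CPM, and Ccr4, at 36.1, 65.1 and 22.8 CPM, was lower there at D14 than in naive blood. None of the 4 passed 2-fold at D14 within S100a4-positive cells. Lef1, a transcription factor of naive T cells, was like Ccr7 highest in naive blood in the whole class, at 1812, 1038 and 955 CPM. It was at 2000, 1885 and 1877 CPM in S100a4-negative and 551, 314 and 409 CPM in S100a4-positive cells.

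NK-like cells carried Ccr2 and S1pr5. Ccr2 was at 335 CPM (308 to 364) in 200 naive, 292 CPM (262 to 323) in 197 D11 and 172 CPM (132 to 221) in 54 D14 cells, and the D14 over naive log2 ratio was -0.96 (-1.36 to -0.58). S1pr5, the S1P receptor through which NK cells and patrolling monocytes leave the marrow, was at 119 CPM (103 to 137), 94.5 CPM (78.1 to 113) and 98.5 CPM (69.0 to 136) in these cells, without a difference beyond counting error between naive and D14 blood. In ncMono-like cells S1pr5 was at 157 CPM (134 to 183), 134 CPM (118 to 152) and 119 CPM (111 to 128). The ncMono-like level exceeded the NK-like one 1.32-fold (1.07 to 1.64) in naive blood and 1.42-fold (1.13 to 1.78) at D11, and at D14 the difference of 1.21-fold (0.865 to 1.74) was within counting error. The next class, cMono-like cells, was 16.1-fold (8.80 to 32.8) below NK-like cells in naive blood.

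S1pr5 and Cx3cr1, both leading in ncMono-like cells, were detected together in few cells once each cell was thinned to 1000 UMIs. The thinned ncMono-like class had 6 such cells among 123 in naive blood, 7 among 206 at D11 and 19 among 620 at D14. The shares of 4.88%, 3.40% and 3.06% stood beside products of the single shares of 3.57%, 3.69% and 3.54%. In thinned NK-like cells both were seen in 0 of 199, 1 of 193 and 0 of 54 cells. Without thinning, 64.2%, 66.5% and 62.4% of ncMono-like cells had an S1pr5 UMI and 85.4%, 80.1% and 88.5% a Cx3cr1 UMI. Many ncMono-like cells thus held UMIs of both in every library. Of 5 receptors tested in NK-like cells 1 fell at D14 and 0 rose, against 5.56% and 4.16% of 6730 genes. The one that fell was Cx3cr1, with 41 naive and 2 D14 UMIs and a log2 ratio of -2.19 (-5.28 to -0.25). It passed the 20 CPM limit only through naive blood and could not have risen. Cxcr4 in NK-like cells was highest at D11, at 67.6, 133 and 84.8 CPM.

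In B-like cells Cxcr4 was at 152 CPM (137 to 168) in naive and 247 CPM (223 to 272) in D11 blood. ProB-like cells, the class with the markers of the transplanted line, had 47.0 CPM (39.6 to 55.3) in 98 D11 and 67.0 CPM (63.5 to 70.6) in 656 D14 cells, and the B-like level at D11 was 5.25-fold (4.33 to 6.40) theirs. The receptors of lymph node entry and exit were close to 0 in proB-like cells: Ccr7 was at 0.326 and 0.768 CPM and S1pr1 at 2.61 and 3.17 CPM. B-like cells had 195 and 211 CPM of Ccr7 and 180.4 and 137 CPM of S1pr1 in naive and D11 blood. S1pr4 in proB-like cells was at 24.5 CPM (19.3 to 30.7) and 24.3 CPM (22.2 to 26.5). Of the 4 receptors tested in B-like cells at D11 0 rose and 0 fell, where 1.34% of 6339 genes rose and 1.03% fell.

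The order of the classes was not the same in all libraries. Ccr2 ran from cMono-like through NK-like and ncMono-like to T-like cells in naive blood. At D14 ncMono-like cells came after T-like and neutrophil-like cells. Each of these steps was beyond counting error in the main classes. Among D14 cells with at most 1 marker of any other class, chosen after seeing the data, the last step did not hold. There Ccr2 was at 4.47 CPM (13 UMIs) in ncMono-like and 2.61 CPM (9 UMIs) in neutrophil-like cells. These counts are too low to order the classes. For Ccr7 T-like cells led B-like cells 1.47-fold (1.33 to 1.62) in naive blood, and B-like led T-like cells 1.36-fold (1.16 to 1.59) at D11. Cxcr4 was highest in neutrophil-like cells, which exceeded ncMono-like cells 1.80-fold (1.55 to 2.10) in naive blood but could not be told from them at D14, at 1.06-fold (0.973 to 1.15). S1pr4 in T-like and NK-like cells was within counting error both in naive blood and at D14, where the folds were 1.12-fold (0.912 to 1.38) and 1.02-fold (0.666 to 1.53). At D11 it was 1.55-fold (1.22 to 1.97) higher in T-like cells. Cxcr3 in naive NK-like and T-like cells was within counting error as well, at 1.25-fold (0.822 to 1.86), and at D14 it was 7.74-fold (2.53 to 38.5) higher in T-like cells.

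Likeness of other genes to each receptor was measured by Pearson's r of log2(CPM + 1) over the 21 class sums with at least 50 cells. The 3 closest to Cxcr2 were Slc40a1, the iron exporter (0.97), Dhrs9 (0.97) and Nlrp12 (0.96), and those to S1pr5 were Pdgfb (0.98), Sh2d1b1 (0.92) and Rbpms (0.90). For Cx3cr1 they were Trf, transferrin (0.95), Cd68, a lysosomal protein of phagocytes (0.95) and Slc8b1 (0.94), for Ccr2 Ccdc102a (0.93), Lgals3bp (0.90) and Fam129b (0.89), and for Cxcr4 Gtf2a1 (0.97), Tsc22d3 (0.97) and Fbrs (0.97). Ccr7 was followed by Rapgef4 (0.96), Dtx1 (0.95) and St8sia6 (0.95), S1pr1 by Gm20098 (0.96), Ephx1 (0.94) and Dtx1 (0.94) and Ccr9 by Inpp4b (0.89), 4930417O13Rik (0.88) and St8sia6 (0.86). Cxcr3 was followed by Ikzf2 (0.96), Kif5c (0.96) and Nebl (0.96) and S1pr4 by Smad7 (0.96), Esyt2 (0.95) and Cd164 (0.94). The sums share 3 libraries and differ in depth, so r is a description only.

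The remaining lists held genes that act with the receptors. Of 14 chemokine ligand genes 1, Cxcl2, was tested in neutrophil-like cells, at 134, 48.5 and 74.7 CPM, and it fell at D11, where 2.14% of 4817 genes fell. Of 13 genes of receptor desensitisation and Gi signalling 11 were tested there and 1 fell at D14, Rgs2, a regulator that shortens G protein signals, from 1186 to 489.9 CPM, against 11% of all genes tested. Rgs1, of the same family, was 1 of 10 tested in T-like cells and rose from 23.7 to 64.5 CPM, against 6.44% of all genes. It was at 18.1, 25.0 and 22.0 CPM in S100a4-negative and 61.1, 80.5 and 89.6 CPM in S100a4-positive T-like cells. In neither group did it pass 2-fold at D14. Of 10 transcription factors upstream of the receptors 6 were tested in neutrophil-like cells, of which 1, Zeb2, fell from 606 to 296 CPM, beside the same 11%. In T-like cells 8 were tested, 3 rose and 0 fell: Tbx21, which drives Cxcr3, from 6.39 to 33.8 CPM, Zeb2 from 15.6 to 56.3 CPM and Cebpb from 14.2 to 41.0 CPM. These 3 were under 20 CPM in naive blood and passed that limit only through D14, so they could not have fallen. In S100a4-positive cells Tbx21 was at 16.4, 39.4 and 48.9 CPM and Cebpb at 38.1, 27.4 and 63.6 CPM. Zeb2, at 69.0, 42.0 and 55.4 CPM, was not higher at D14 in S100a4-positive cells. In S100a4-negative cells Zeb2 was higher at D11 and D14 than in naive blood. It was at 7.63, 43.1 and 57.9 CPM there, from 78, 43 and 21 UMIs. In NK-like cells 9 were tested, Cebpb rose from 31.1 to 62.9 CPM and Tcf7, a factor of immature NK and naive T cells, fell from 119 to 32.8 CPM, where 4.16% of all genes rose and 5.56% fell. Nr4a1, needed for non-classical monocytes, rose in cMono-like cells from 55.7 to 113 CPM, 1 of 6 tested, against 5.83% of all genes. Of 12 genes of S1P synthesis, transport and breakdown 3 were tested in ncMono-like cells, of which Plpp1, a lipid phosphatase, rose from 20.4 to 49.1 CPM, against 3.64% of all genes. Ccrl2, a receptor that binds chemerin without signalling, rose in ncMono-like cells from 16.5 to 51.9 CPM, against 3.64% of all genes. It was the only gene of the 16 other chemokine receptors tested there and, being under 20 CPM in naive blood, could not have fallen. In neutrophil-like cells, where 2 were tested, it fell from 82.0 to 25.4 CPM, against 11% of all genes.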

How the data were processed

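Peripheral blood leukocytes of 3 libraries (naive, D11 and D14) were profiled with 10x 3′ v3 chemistry. The deposited tables hold UMI counts per gene and barcode, which the authors made with Cell Ranger on mm10. The submitters' processing notes name version 7.1.0 and the matrix headers 5.0.1.

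The counts were used as deposited. Barcodes were gated into 13 classes by 6 markers each (5 of the erythroid gate were found), and UMIs were summed per class and library. Median depth was 6031, 6389 and 6781 UMIs per kept cell. Levels have exact Poisson, ratios exact conditional binomial and shares Clopper-Pearson 95% intervals (scipy 1.17.1), none of which include variation between mice. For shares, cells were thinned to 1000 UMIs without replacement and shallower cells left out. A 2-fold difference was looked for in genes that reached 20 CPM in a library of the pair, with 0 UMIs set to a floor of 3 counts. A gene under 20 CPM in 1 library of a pair could be called only as higher in the other. Doublets stayed in the main values; Scrublet scores (scanpy 1.11.5) and TMM factors (edgeR 4.0.16) were alternatives. Scripts were tested on simulated data.

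Receptors, lists and gates were chosen with earlier results of these data known. Named are all 10 receptors, list genes with at least 50 CPM in a described class and a 2-fold difference, and the 3 genes most alike to each receptor. Ccr4, Ccr6, Ccr10, Plpp1, Klf2, Cd69, Lef1 and S100a4 in T-like or ncMono-like cells were named after their values were seen. 1 gene of the lists is not reported here.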

Additional observations from a re-analysis of the deposited data

Results flagged for a closer look

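Ccr2 moved in opposite directions in 2 classes of the D14 library relative to naive blood, with a log2 ratio of 1.43 in T-like cells and of -3.91 in ncMono-like cells. Within T-like cells with S100a4 UMIs the Ccr2 ratio was -0.66, the same direction as in ncMono-like cells. Those without had 0 UMIs at D14, a count too low to settle a direction. Cx3cr1 did so in 3 classes, with log2 ratios of 1.10 in neutrophil-like, -1.03 in cMono-like and -2.19 in NK-like cells, the last from 2 UMIs at D14. These differences between classes were not tested, since each condition had 1 library.

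Outside the compared classes, 2 cells of the D11 library that met a gate for plasmacytoid dendritic cells held 12 Ccr9 UMIs, or 440 CPM (228 to 769), above the level of every compared class of that library. The naive library had no cell in this gate and the D14 library had 1, with 1 Ccr9 UMI.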

How the results depend on the processing

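Across the 52 receptor ratios over naive in the main classes, all 13 that passed 2-fold did so again with all barcodes, with stricter cell filters (500 genes, 5% mitochondrial UMIs), with TMM factors and, chosen after seeing the data, without barcodes found in more than 1 library. With 4 markers, without the highest Scrublet scores and in CPM without ribosomal, mitochondrial and hemoglobin genes 12 of the 13 did, and with a margin of 1 marker, with per-cell CPM and with at most 1 marker of other classes 11 did. Cxcr2 in ncMono-like cells reversed without the highest Scrublet scores (0.85) and in cells with at most 1 marker of other classes (0.57). That last selection, also chosen after seeing the data, gave D14 ratios of -0.63 (cMono-like, 5 D14 cells) and -4.79 (ncMono-like) for Ccr2, and in neutrophil-like cells 1.79 for Cx3cr1, -0.048 for Cxcr2, -0.79 for Cxcr4 and 1.41 for S1pr4. In granule-low cells those 4 were 1.95, -0.043, -0.75 and 1.03. Per-cell CPM gave 1.79 for Cx3cr1, -0.20 for Cxcr2 and 1.45 for S1pr4, TMM gave -0.11 for Cxcr2 and -0.70 for Cxcr4, and a margin of 1 marker gave 0.77 for Cx3cr1. In T cells split after seeing the data, the S100a4-positive ratios were -0.66 (Ccr2, reversed), -2.73 (Ccr9), 0.64 (Cxcr3) and -0.63 (S1pr1), and the S100a4-negative ones -0.35 (Ccr7), 0.46 (Ccr9), 1.04 (Cxcr3) and -0.55 (S1pr1). Beyond the construction of each selection, the cause of these shifts was not tested.

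Counts of receptors past the fold changed as follows. With a 10 CPM minimum 1 rose in cMono-like and 1 in NK-like cells, and 3 fell in NK-like cells; with a 50 CPM minimum 1 fell in ncMono-like and 0 in NK-like cells. At 1.5-fold 2 fell in cMono-like, 1 in neutrophil-like, 3 in T-like and 2 in NK-like cells, and 1 rose in B-like cells at D11. The other 26 of these counts (D14, and D11 for B-like cells) stayed within 1.5 times. Of the remaining counts of receptors, which include D11 and the numbers tested, 52 stayed and 11 moved, whereas 63 counts over all genes moved with the limits and 3 stayed. The class shares of a receptor's UMIs left their counting interval 13 times and stayed inside it 17 times with a margin of 1 marker, and the shares of cells with both receptors of a pair did so 23 and 10 times at 2000 UMIs per cell. Levels stayed inside their counting interval 170 times and left it 40 times, and shares at 2000 UMIs per cell did so 6 and 24 times, being higher at the larger depth. 1 library per condition limits every comparison: animal, library and stage cannot be told apart. Levels below about 10 CPM rest on few UMIs in the smaller classes, such as NK-like cells of D14 (54 cells).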

Other observations

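A few receptor UMIs lay in cells too rare to compare. The 11 naive cells of the basophil gate had 47 Cxcr2 UMIs, 803 CPM (590 to 1068), and the 10 such cells of D11 had 14 UMIs, 191 CPM (105 to 321). Cells of the conventional dendritic cell gate, 4 in naive blood and 5 at D11, had 14 and 16 Ccr2 UMIs, 187 and 269 CPM, and 0 Ccr7 UMIs. The 3 naive cells of the proB gate had 8 Cxcr4 UMIs.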
